A study of Mus musculus with 15 samples.

Results

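Collagen-induced arthritis is an inflammation of the joints that follows immunisation against type II collagen, the main collagen of cartilage. The joints described here were tarsal joints scored 3 on the clinical scale that had been arthritic for 1 to 2 weeks, from animals 33, 43 and 52. These 3 joints were compared with 3 joints of mice that the labels call non-induced. The 3 are among 15 joints in the series and were taken by the duration and score in the labels, and all 19938 genes measured were examined. All mice were male DBA/1JBom mice of an age that the sources used here do not give. Arthritic animals had received chicken type II collagen in complete Freund's adjuvant and a later boost of it in incomplete Freund's adjuvant. The array methods call the controls non-immunised, whereas the animal methods describe controls given adjuvant without collagen, so whether these 3 joints had seen adjuvant is not settled. Each array held RNA of 1 joint of 1 mouse, taken whole without skin, visible muscle and fur, and with the other soft tissue and the marrow kept. Animals served as replicates (n = 3 and 3).

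In an arthritic joint the synovial lining thickens, monocytes and neutrophils enter, and stromal cells secrete proteases that cut collagen and proteoglycan. Osteoclasts, multinucleated cells of the monocyte lineage, dissolve bone with acid and with the collagen-cleaving protease cathepsin K. In this model the joint margin also forms new matrix, cartilage and bone during the first weeks, which ends in bony fusion. Week 1 to 2 is a phase in which erosion and formation coexist, as they also did earlier in the paper's histology. The comparison asks which genes of both processes differ from a joint without arthritis.

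Values are log2 signals after robust multi-array averaging (RMA), so that a difference of 1 is a 2-fold change. A gene was called higher or lower where its p, adjusted by the Benjamini-Hochberg procedure for all genes tested, was under 0.05 in limma, a linear model that borrows the spread of all genes and all 5 groups. The largest rises included the protease genes Mmp13, Mmp3 and Ctsk and the matrix genes Postn and Kera, and the largest falls the muscle genes Mylk4, Des and Nrap. Of 19938 genes, 1079 were called higher (5.41%) and 926 lower (4.64%). The rises were larger: the median log2 change was 1.11 over the genes called higher and -0.74 over those called lower, and 91 of the former but 7 of the latter passed 4-fold. All 3 joints lay above all 3 controls in 1058 of the genes called higher, a pattern that 13.6% of all genes showed, and below them in 923 of those called lower, against 23.3% of all genes. Over all genes the log2 change had a median of -0.13, and the values that follow are to be read against it. The number of calls depends on single arrays: the total of 2005 (10.1%) became 417 without animal 43, 519 without animal 52, 1071 without control 2 and 106 when the day 0 to 3 array of animal 57, which the labels exclude on quality grounds, was included. At 2-fold and an unadjusted p under 0.05, 1094 genes differed (5.49%), 859 of them higher (4.31%) and 235 lower (1.18%).

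Signals spread more widely on the arthritic arrays. The SD over genes was 1.51, 1.62 and 1.57 in animals 33, 43 and 52, and 1.46, 1.22 and 1.41 in controls 1, 2 and 3, without overlap. Dim genes moved down and bright genes up as a whole: the median log2 change was -0.33 in the 10% of genes dimmest in controls and 0.23 in the brightest 10%. The dimmest held 128 genes called lower and 12 called higher, the brightest 157 and 305. Names of the arrays in the study's tables carry a letter code that all 3 arthritic joints share and the controls lack, so the code and the group cannot be told apart. Within each group the array of narrowest signal range, control 2 or animal 33, had the lowest mean in most of the 43 gene lists described next, control 2 in 34 and animal 33 in 27. Of 22 lists with at least 3 members called higher and fewer lower, control 2 was lowest in 19 and animal 33 in 18, among them the cathepsin, ribosome, proteasome, secretory pathway, BMP and IGF lists. The part of signal range in the counts of these lists was not tested beyond setting every array to 1 mean and 1 SD. Genes also varied less among the arthritic joints, with a median SD of 0.14 against 0.28 among controls, and the SD was larger in the arthritic joints for 21.2% of genes.

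**Figure D1:**
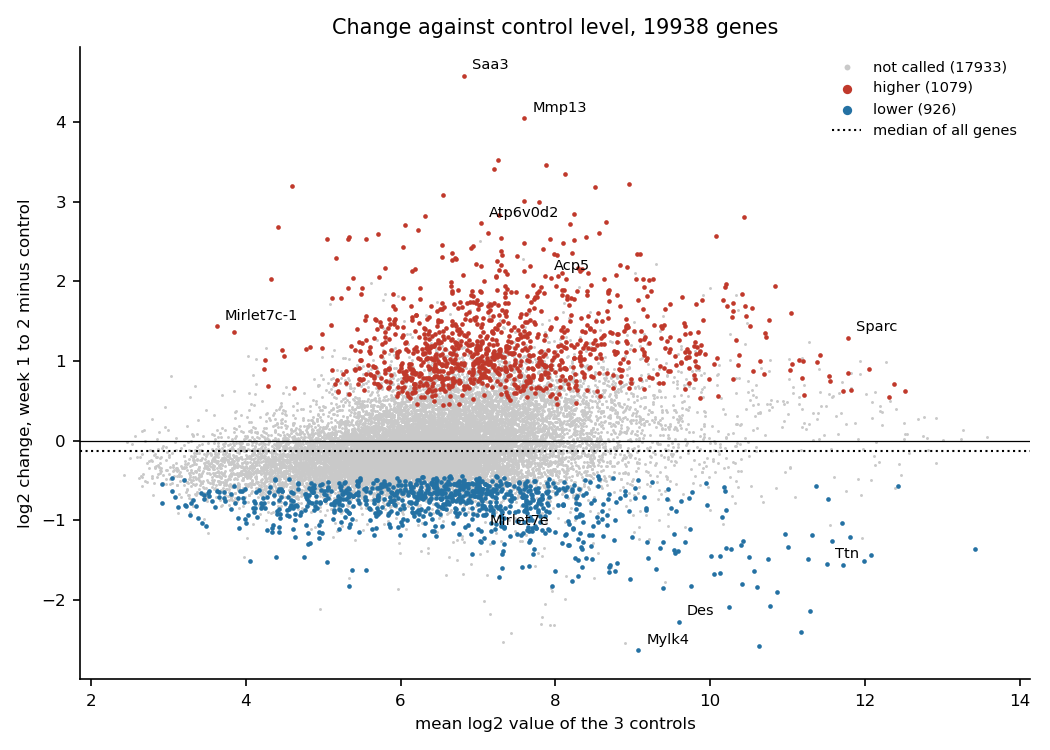
Log2 change of each gene in week 1 to 2 against control (y axis) by its mean log2 value in the 3 controls (x axis); red points were called higher, blue points lower and grey points not called. Rises reach 4.58 (Saa3) and falls 2.63 (Mylk4), and the dotted line is the median change of all genes, -0.13.

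Gene groups were described by 43 lists of genes with known roles. In 3 of them more than 60% of the measured members were called higher. These were 8 of 11 fibrillar, fibril-bound and type VI collagen chains, 8 of 11 small leucine-rich proteoglycans and 6 of 9 tendon genes. Lists can share members, so their counts are not separate results. Kera, for example, is in both the proteoglycan and the tendon list. At the other end, 12 of 29 skeletal muscle genes, 8 of 18 adipocyte genes and 4 of 9 smooth muscle genes were called lower. Of 14 neutrophil, 13 T and natural killer cell, 19 epidermal and 4 RANKL axis genes, 0 were called in either direction. Among all genes 10.1% were called, so 0 calls in so short a list as that of the RANKL axis says little.

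**Figure D2:**
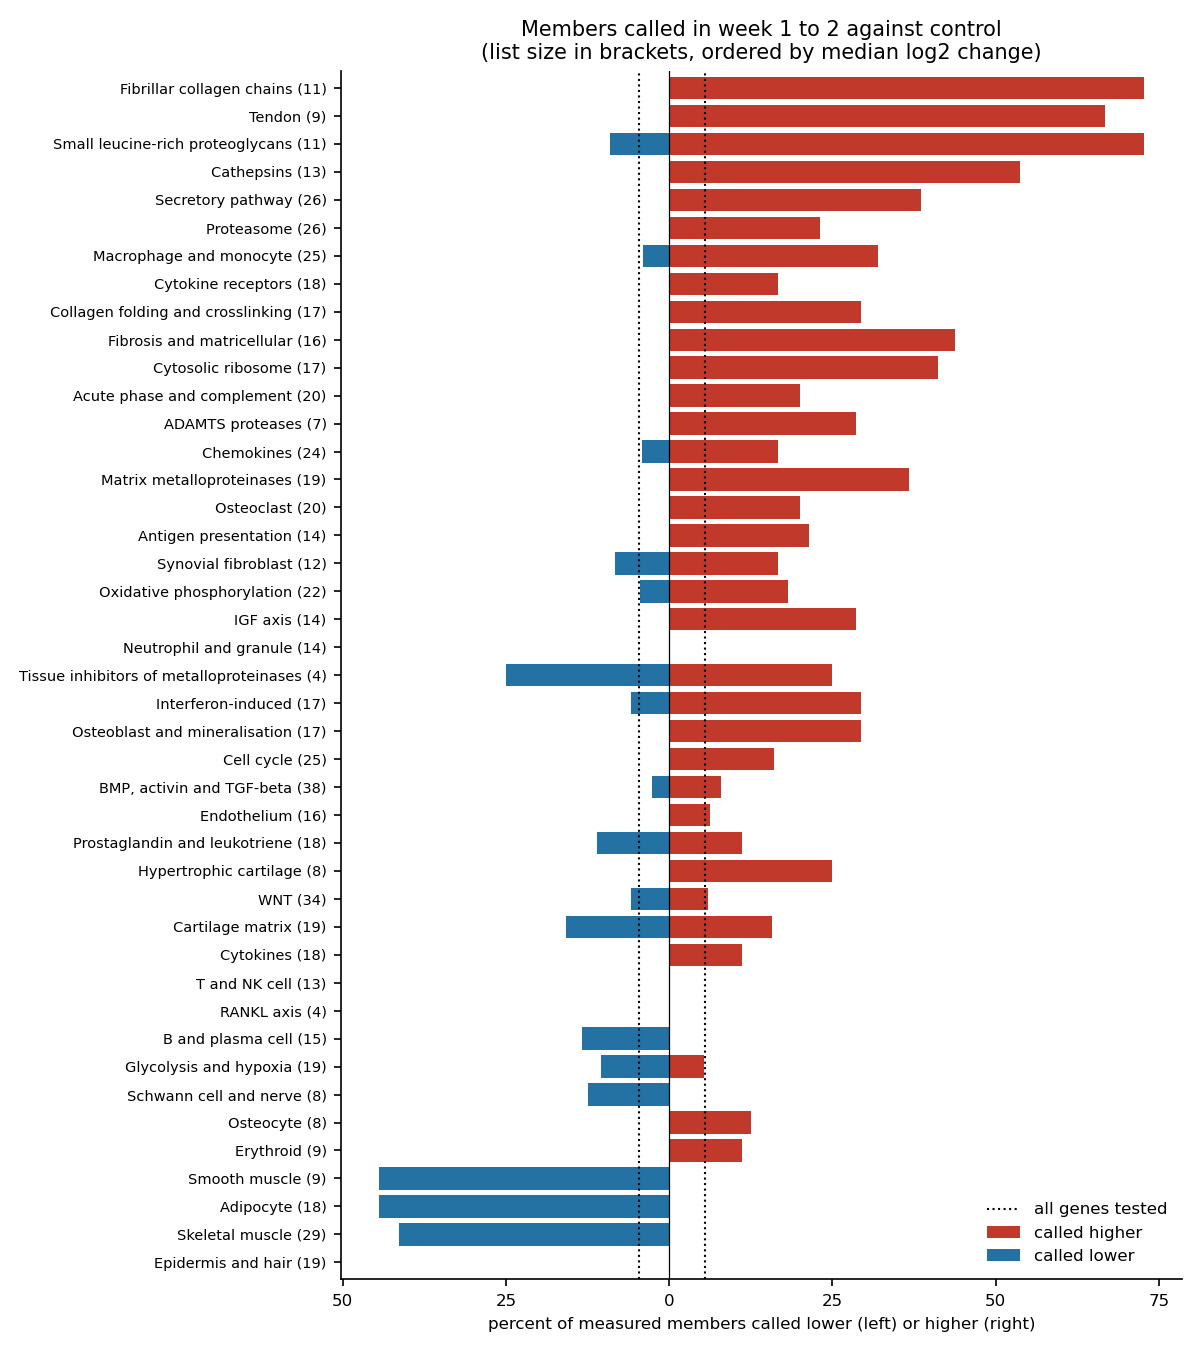
Percent of the measured members of each of 43 gene lists that were called higher (red, right) or lower (blue, left) in week 1 to 2 against control, with the number measured in brackets; dotted lines mark the share among all genes, 5.41% higher and 4.64% lower. Lists are ordered by their median log2 change, from collagen chains (1.06) down to epidermis and hair (-0.97). The collagen list, labelled fibrillar, also holds type VI chains.

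The 12 largest rises also held Crabp2, Polr2h, Gm10561 and Rplp0. Crabp2, which carries retinoic acid in the cell, had 10.17, 10.60 and 11.07 against 7.74, 7.09 and 6.79. Polr2h, a subunit of RNA polymerases, had 9.37, 9.72 and 9.84 against 6.42, 5.74 and 7.50 (log2 3.09), while its other probe set rose by 0.78. Gm10561, a long noncoding RNA gene, had 7.70, 7.65 and 8.01 against 4.16, 4.09 and 5.54 (log2 3.19). The ribosomal gene Rplp0 had 11.11, 11.62 and 11.67 against 8.06, 7.13 and 9.17, but its second probe set, at -0.25, was not called, so its probe sets disagree. The largest rises and falls were taken only from called genes without overlap between the groups. Separation of the groups in these 4 genes was thus set by the choice.

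Among the 12 largest falls, Syne2, whose product joins the nucleus to the cytoskeleton, had 8.03, 8.19 and 7.94 against 11.18, 10.73 and 9.99. Its other 3 probe sets, at 0.13, -0.47 and 0.56, were not called. The phosphatase gene Ptpn3 had 8.90, 9.12 and 8.27 against 11.46, 10.68 and 11.38, and its other probe sets ranged from -2.58 to 0.55. The noncoding RNA gene Gm10860 fell by 1.83, as did 2310034C09Rik, for which control 3, at 7.11, stood far above the other controls, at 4.31 and 4.58.

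Matrix metalloproteinases (MMPs) cut the proteins of the extracellular matrix, and 7 of 19 measured were called higher and 0 lower, at a median log2 change of 0.40. The largest rises were in Mmp13 (collagenase 3) and Mmp3 (stromelysin). Mmp13 had log2 values of 11.30, 11.81 and 11.80 in animals 33, 43 and 52 against 8.75, 6.79 and 7.24 in the controls. Mmp3 had 10.10, 10.96 and 11.25 against 8.44, 6.71 and 6.60. For both genes every arthritic joint stood above every control, as the choice of the largest rises required. Control 1 was the highest control, and animal 33 was the lowest of the 3 arthritic joints. The gelatinase genes followed. Mmp9 lay at 8.53, 9.26 and 8.93 against 7.20, 6.25 and 7.63, a log2 change of 1.88 (standard error 0.35, adjusted p = 0.00733). Mmp2 lay at 10.65, 10.95 and 10.89 against 9.84, 8.01 and 9.34, a log2 change of 1.77 (standard error 0.36, adjusted p = 0.0107). Mmp14, whose membrane-bound product activates pro-gelatinase A, rose by 1.39 (standard error 0.21, adjusted p = 0.00322), and Mmp16 and Mmp19 rose by 0.97 and 0.83.

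Inhibitors of MMPs moved apart. Timp1 had 10.09, 10.65 and 11.08 against 7.79, 7.76 and 7.23 and rose by 3.01, while Timp4 had 6.48, 5.62 and 5.73 against 7.72, 7.16 and 7.10 and fell by 1.39 (adjusted p = 0.004). Timp2 and Timp3 were not called, at log2 changes of 0.54 and -0.12. Among 7 aggrecan-cutting and related ADAMTS proteases, Adamts1 (log2 1.21, adjusted p = 0.0461) and Adamts12 (0.79, adjusted p = 0.0197) were called higher. The aggrecanase genes Adamts4 and Adamts5, at 0.47 and 0.99, were not, and 0 of the 7 were called without animal 43, animal 52, control 2 or control 3.

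The sequences upstream of Mmp3, Mmp13 and the cytokine gene Il6, which rose with them, are shown because each holds a copy of the motif TGAGTCA, to which AP-1 transcription factors bind, or its reverse complement TGACTCA. They are the 250 bases before the RefSeq start of each gene in build GRCm38.p6, 5′ to 3′ on the gene's strand, with the motif in capitals. Mmp3 lies on chr9:7445572-7445821 (plus strand), Mmp13 on chr9:7272264-7272513 (plus strand) and Il6 on chr5:30012864-30013113 (plus strand).
Mmp3: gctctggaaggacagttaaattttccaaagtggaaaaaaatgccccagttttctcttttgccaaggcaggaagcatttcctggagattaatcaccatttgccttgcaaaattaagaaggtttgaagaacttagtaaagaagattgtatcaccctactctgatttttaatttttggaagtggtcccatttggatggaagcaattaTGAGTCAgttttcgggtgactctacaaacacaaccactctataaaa
Mmp13: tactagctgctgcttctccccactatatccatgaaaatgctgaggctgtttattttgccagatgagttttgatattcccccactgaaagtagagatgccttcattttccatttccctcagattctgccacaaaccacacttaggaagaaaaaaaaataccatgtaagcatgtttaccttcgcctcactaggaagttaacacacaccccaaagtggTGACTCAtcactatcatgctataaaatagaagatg
Il6: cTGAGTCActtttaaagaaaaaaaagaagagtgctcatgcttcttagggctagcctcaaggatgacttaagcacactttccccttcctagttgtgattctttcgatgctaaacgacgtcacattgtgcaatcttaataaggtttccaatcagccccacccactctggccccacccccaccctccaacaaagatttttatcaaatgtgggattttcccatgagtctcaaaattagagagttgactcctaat
The motif begins 46 bases before the start of Mmp3, 35 before that of Mmp13 and 249 before that of Il6. Both strands were searched in 32851 such windows, and 4.46% held it. Among the 14 MMP genes with a window, 5 did: Mmp3, Mmp7, Mmp10, Mmp12 and Mmp13, of which only Mmp3 and Mmp13 were called. Counted by gene, 41 of 865 genes called higher with a window held the motif (4.74%), 41 of 683 called lower (6.0%) and 742 of 15614 measured genes (4.75%).

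Cathepsins are proteases of the lysosome and of the acid space under osteoclasts, and 7 of 13 were called higher and 0 lower. Ctsk rose most, with 11.09, 11.47 and 11.44 in the arthritic joints against 9.07, 6.57 and 8.01. Ctsh rose by 1.69 and Ctss, a cathepsin of antigen-presenting cells, by 1.54 (adjusted p = 0.0264 and 0.0121). Ctsl, Ctsc, Ctsb and Ctsz rose by 1.09, 1.08, 0.99 and 0.95. Legumain (Lgmn), at 1.46, missed the threshold (adjusted p = 0.0577).

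Of 20 osteoclast genes 4 were called higher: Ctsk, Atp6v0d2, Acp5 and Ckb. Acp5, the tartrate-resistant acid phosphatase by which osteoclasts are stained, had 9.87, 10.00 and 9.93 against 8.12, 6.95 and 8.53. It was 4.19-fold higher (log2 2.07, standard error 0.31, adjusted p = 0.00311), and the 3 arthritic joints lay close together. Atp6v0d2, a subunit of the proton pump of osteoclasts and macrophages, had 9.16, 10.21 and 9.93 against 7.63, 6.69 and 6.79. It was 6.65-fold higher (log2 2.73, standard error 0.39, adjusted p = 0.00238). The calcitonin receptor gene Calcr, a marker of mature osteoclasts, was at 5.86, 5.29 and 5.69 against 5.81, 6.21 and 5.87 and was not called. The 4 measured genes of the RANKL axis, which drives osteoclast formation, were not called either. At the share called among all genes, 10.1%, so short a list can hold 0 calls. Tnfsf11, the gene of RANKL itself, differed by 0.18 (standard error 0.17). Tnfrsf11b, the gene of its decoy receptor osteoprotegerin, differed by -0.56 (standard error 0.19, adjusted p = 0.0694). For the latter all 3 arthritic joints lay below all 3 controls, as in 23.3% of all genes.

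Of the collagen chains and of the proteoglycans that space their fibrils, 8 of 11 each were called higher. Col12a1, a fibril-associated collagen of tendon and periosteum, had 10.34, 10.63 and 10.51 against 9.32, 7.59 and 8.12 and was 4.44-fold higher (standard error 0.33 on the log2 scale, adjusted p = 0.00327). The type I collagen genes, the bulk of bone and tendon matrix, rose less: Col1a1 by 1.10 and Col1a2 by 1.13 (adjusted p = 0.0252 and 0.0128). Col1a1 had 11.07, 11.07 and 10.73 against 10.53, 9.60 and 9.44, so that control 1 lay just under the lowest arthritic joint. Col14a1, Col3a1, Col5a2, Col6a3 and Col6a1 rose by 1.23, 1.07, 1.06, 0.88 and 0.78. Among 17 genes that fold, trim and crosslink collagen, 5 rose: Plod2, Lox, Crtap, P4hb and Ppib. The count was 1 without animal 43, 2 without animal 52 and 11 without control 1. For Lox, the gene of lysyl oxidase, the arthritic joints were at 9.28, 9.72 and 9.71, control 1 at 9.13 and the other controls at 6.96 and 7.21.

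Keratocan (Kera), a leucine-rich proteoglycan of tendon and cornea, rose most in its family, from 9.02, 6.19 and 8.16 in controls to 10.61, 11.04 and 10.70 in arthritic joints. It was 7.97-fold higher (log2 2.99, standard error 0.52, adjusted p = 0.00522). Lumican (Lum) had 12.10, 12.16 and 12.07 against 10.95, 9.94 and 9.66 (log2 1.92, standard error 0.27, adjusted p = 0.0023). Osteoglycin (Ogn) and asporin (Aspn) rose by 1.86 and 1.66, and fibromodulin (Fmod), biglycan (Bgn), osteomodulin (Omd) and epiphycan (Epyc) by 1.01, 1.00, 0.93 and 0.57. Chondroadherin (Chad), a cartilage member of the family, was the 1 that fell, with 9.31, 8.96 and 8.86 against 10.26, 10.59 and 10.65 (log2 -1.46, standard error 0.20, adjusted p = 0.0023).

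Of 16 matricellular and fibrosis genes 7 rose. Next to periostin (Postn) stood Cthrc1, a secreted protein of remodelling matrix, with 10.30, 10.46 and 10.61 against 9.02, 7.32 and 7.45 (5.77-fold). Fap, a surface protease of activated fibroblasts, was 3.52-fold higher, versican (Vcan) 2.77-fold and tenascin C (Tnc) 2.45-fold. In the tendon list, tenomodulin (Tnmd) had 10.35, 10.54 and 10.44 against 9.27, 7.28 and 8.39. The tendon transcription factor Scx had 8.16, 7.37 and 7.52 against 7.25, 6.76 and 7.33 and was not called (adjusted p = 0.209). Among 12 synovial fibroblast genes, the adhesion gene Cdh11 and the hyaluronan precursor enzyme gene Ugdh rose by 1.69 and 0.95 and Clic5 fell by 1.21. Lubricin (Prg4), the lubricant of joint surfaces, was at 12.50, 12.47 and 12.58 against 12.67, 12.34 and 12.50, so this marker of joint tissue was strong in all 6 joints.

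Control 2, the array of narrowest signal range, was the lowest control for Kera, Col12a1, Tnmd, Acp5, Ctsk and Lox, and control 1 was the highest for all of these but Acp5. In an alternative chosen after the data were seen, each array was set to 1 mean and 1 SD. Then 4 of 11 collagen chains, 5 of 11 proteoglycans and 4 of 9 tendon genes were called higher, against 8, 8 and 6. The counts were 7 for MMPs, 4 for osteoclast genes and 6 for cathepsins in that setting. Without animal 43 the collagen, proteoglycan and tendon counts were 2, 3 and 2, without animal 52 they were 3, 3 and 3, and without control 2 they were 3, 5 and 3. Of the 7 cathepsins, 1 was called without animal 43, 2 without animal 52, 3 without control 2 and 4 without control 3, and of the 7 MMPs 4 without animal 43.

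**Figure D3:**
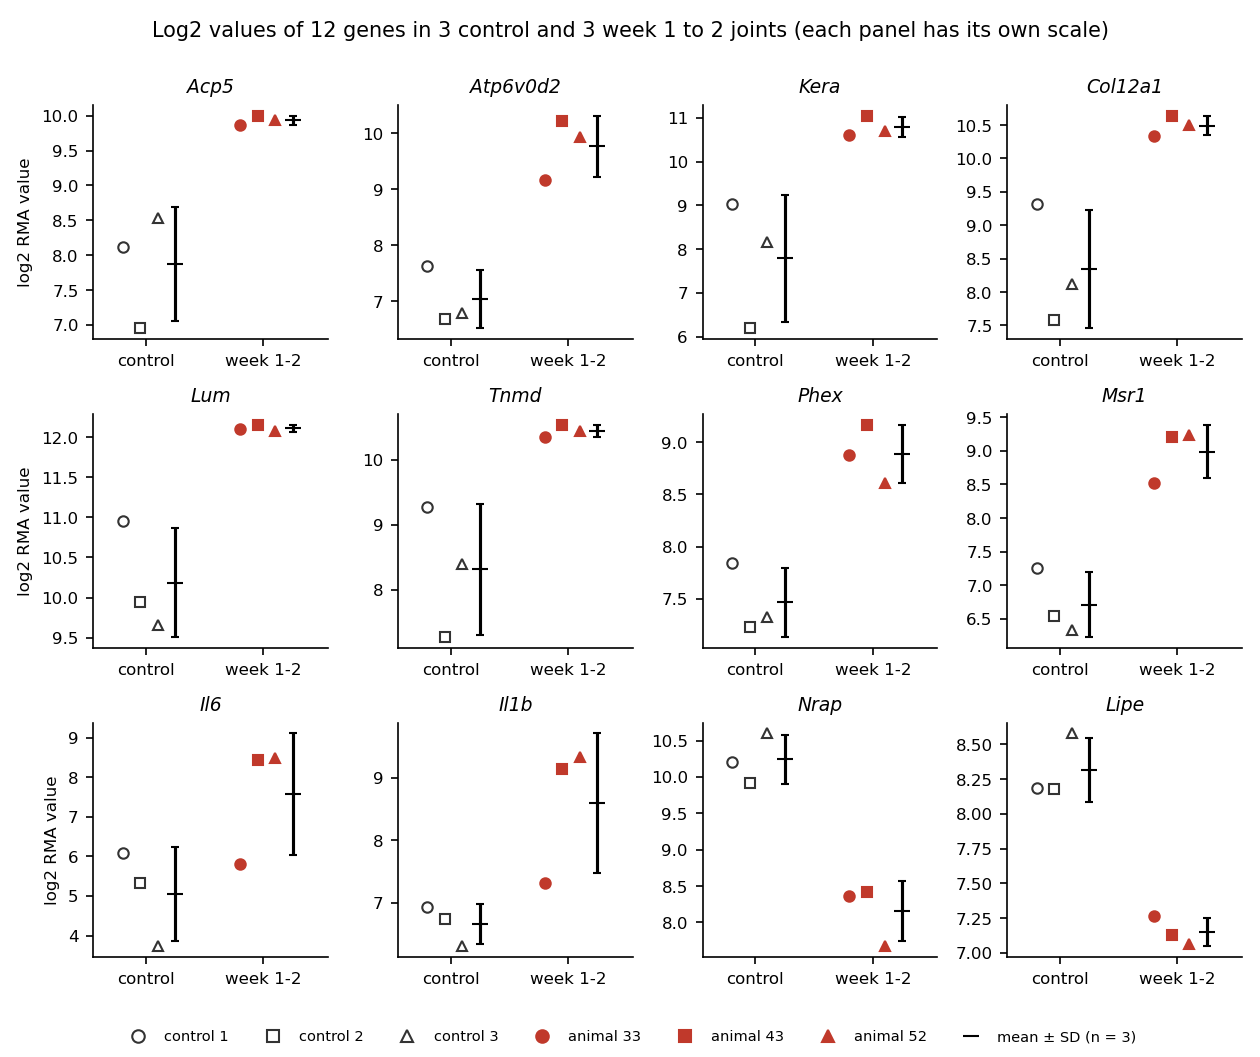
Log2 RMA values (y axis) of 12 genes in each control joint (open symbols) and each week 1 to 2 joint (red), with the mean ± SD of each group in black (n = 3). The groups do not overlap for 11 genes, and for Il6 animal 33 (5.81) lies below control 1 (6.07).

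In the osteoblast list, 5 of 17 genes were called higher and 0 lower, at a median log2 change of 0.16. The count was 3 without animal 43 and 3 with 1 mean and 1 SD for every array. Ibsp, the gene of bone sialoprotein, had between 11.85 and 12.23 against 11.23, 10.41 and 10.53 (log2 1.30, standard error 0.21, adjusted p = 0.00347). Sparc, the gene of osteonectin, had 13.03, 13.10 and 13.10 against 12.26, 11.58 and 11.49 (log2 1.29, standard error 0.19, adjusted p = 0.00251). Mgp, the gene of matrix Gla protein, an inhibitor of calcification, rose by 1.69. Phex, an endopeptidase of osteoblasts and osteocytes that controls phosphate handling, had 8.87, 9.17 and 8.61 against 7.84, 7.23 and 7.33 and was 2.68-fold higher (log2 1.42, standard error 0.28, adjusted p = 0.00927). The osteoblast transcription factor Sp7 had 7.18, 7.16 and 7.10 against 6.65, 6.86 and 6.35 and just missed the threshold (log2 0.53, adjusted p = 0.0558). All 3 joints lay above all 3 controls for Sp7, as in 13.6% of all genes. Tissue-nonspecific alkaline phosphatase (Alpl) was at 8.72, 8.47 and 8.45 against 8.77, 8.45 and 8.70. Of the osteocyte genes Phex alone was called among 8. Sost, the gene of the WNT inhibitor sclerostin, had 7.02, 6.83 and 6.97 against 7.57, 7.55 and 7.28 (log2 -0.53, adjusted p = 0.087), and Dmp1 differed by 0.22.

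Cartilage matrix genes were called in both directions. Hapln1, which links aggrecan to hyaluronan, had 8.20, 7.66 and 7.32 against 6.98, 6.64 and 6.11 (log2 1.15, standard error 0.30, adjusted p = 0.032). Col11a1, a minor fibril chain of cartilage, rose by 0.85 and Epyc by 0.57. Clec3a, a cartilage lectin, had 9.49, 8.50 and 8.10 against 10.55, 11.27 and 10.50 (log2 -2.08, standard error 0.53, adjusted p = 0.0277), and the cartilage membrane proteoglycan gene Snorc fell by 0.80. Together with Chad this made 3 higher and 3 lower of 19. These counts were 0 and 1 without animal 43, 1 and 1 without animal 52 or control 2, and 1 and 2 without control 3, so they rest on single arrays. Type II collagen (Col2a1) was at 7.45, 7.44 and 7.27 against 7.59, 7.44 and 7.34, of the 8 genes of hypertrophic cartilage Mmp13 and Ibsp alone were called, and aggrecan (Acan), at 0.87, missed the threshold (adjusted p = 0.055).

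Of 25 macrophage and monocyte genes, 8 were called higher and 1 lower, and 16 were not called. Clec4d, a lectin receptor of activated myeloid cells, had 7.08, 8.10 and 8.47 against 5.84, 4.87 and 5.27 (5.89-fold, standard error 0.39 on the log2 scale, adjusted p = 0.00322). The scavenger receptor gene Msr1 had 8.53, 9.20 and 9.24 against 7.25, 6.55 and 6.33 (4.84-fold, adjusted p = 0.00374), and Ms4a7 had 8.98, 9.32 and 9.39 against 7.79, 6.52 and 6.81 (4.55-fold, adjusted p = 0.00276). Clec4e, Tyrobp, Ms4a6d, Fcer1g and Fcgr1 rose by 1.92, 1.69, 1.30, 1.27 and 0.72. Cd163, a haemoglobin scavenger receptor of resident macrophages, was the 1 that fell, with 6.45, 6.01 and 6.19 against 7.53, 7.32 and 7.02 (log2 -1.08, standard error 0.27, adjusted p = 0.0256). Of the 8 genes called higher, 3 were called without animal 43, 3 without animal 52 and 5 without control 2. The lineage markers Csf1r, Cd68 and Adgre1 were not called, at log2 changes of 0.32, 0.77 and 1.07.

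Cytokine genes were called in 2 of 18, Il6 and Il1b, and in 0 without animal 43 or without animal 52. Il6 had 5.81 in animal 33, 8.43 in animal 43 and 8.49 in animal 52, against 6.07, 5.33 and 3.74 in controls. Its call (log2 2.53, standard error 0.68, adjusted p = 0.0342) thus rests on animals 43 and 52, while animal 33 lay among the controls. Il1b had 7.31, 9.13 and 9.33 against 6.92, 6.73 and 6.31 (log2 1.94, standard error 0.42, adjusted p = 0.0142). The receptor antagonist gene Il1rn, at 0.68, was not called (adjusted p = 0.087). Among 24 chemokine genes Ccl12, Cxcl5, Ccl3 and Ccl9 rose and Ccl11, an attractant of eosinophils, fell by 0.81. Without animal 43 or animal 52, 1 of the 4 risen chemokines was called, and without animal 33 the list had 8. Cxcl5, an attractant of neutrophils, had 6.14, 7.66 and 8.60 against 4.93, 5.17 and 5.42 (4.91-fold, adjusted p = 0.0203). Cxcl2, of the same function, had 6.22, 8.42 and 8.69 against 6.63, 5.65 and 5.61 and was not called (adjusted p = 0.0514). Il4ra, Csf2rb and Ccr2 were the 3 of 18 cytokine and chemokine receptors that rose, by 1.46, 1.22 and 1.06, with 1 called without animal 43, 0 without animal 52 and 7 without control 1.

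The 14 neutrophil genes had 0 calls, and their mean level was 7.87 in animal 33, 9.32 in animal 43 and 8.79 in animal 52 against 8.57, 7.84 and 8.78 in the controls. S100a8 and S100a9, which marrow neutrophils express strongly, stood at 11.20 to 13.07 in the arthritic joints and at 11.78 to 12.85 in the controls. Markers of T and natural killer cells were uncalled in 13 of 13. For B and plasma cells 2 of 15 fell, Vpreb1 and Vpreb3, both surrogate light chain genes of marrow B cell precursors. In this list 0 were called lower without animal 52 and 1 without animal 43, control 2 or control 3. Interferon-induced genes were called higher in 5 of 17 (Ifit3, Rtp4, Ifit2, Ifitm3 and Gbp3) and lower in 1 (Oasl1), and without animal 43 or animal 52 in 2 and 0. Of 14 antigen presentation genes H2-Ab1, Cd74 and B2m rose, and H2-Ab1, a chain of the class II molecule, had 8.14, 8.16 and 8.18 against 5.54 in control 2 and 6.99 in control 3, with control 1 level with control 3. Of these 3 genes 0 were called without animal 43, animal 52 or control 2. From 20 acute phase and complement genes Saa3, C3ar1, Ptx3 and C5ar1 rose, the anaphylatoxin receptor gene C3ar1 by 1.78 and C5ar1 by 0.91, with 2 called without animal 52 and 7 without control 1.

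Animal 33 differed from animals 43 and 52 by an amount that varied from list to list. Its list mean minus that of the other 2 was -1.18 for neutrophil genes, -0.58 for chemokines, -0.55 for cytokine receptors, -0.49 for macrophage genes, -0.44 for acute phase genes, -0.43 for cathepsins, -0.40 for ADAMTS proteases and -0.24 for MMPs on the log2 scale. For interferon-induced, T and natural killer cell, tendon, collagen chain and B cell genes it was -0.04, -0.05, -0.06, 0.03 and 0.08, and for skeletal muscle genes, which were lowest in animal 52, it was 0.41. It was the lowest of the 3 in 793 of the 1079 genes called higher (73.5%), whereas over all genes it was the lowest in 35.5%. Over the root mean square of all genes, animal 33 lay 0.478 from the control mean, animal 43 0.602 and animal 52 0.562, and a control 0.449 to 0.545 from the mean of the others. Signal range was also the narrowest of the 3 in animal 33, and its part in these differences was not tested. These differences between single joints are descriptions without a test.

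**Figure D4:**
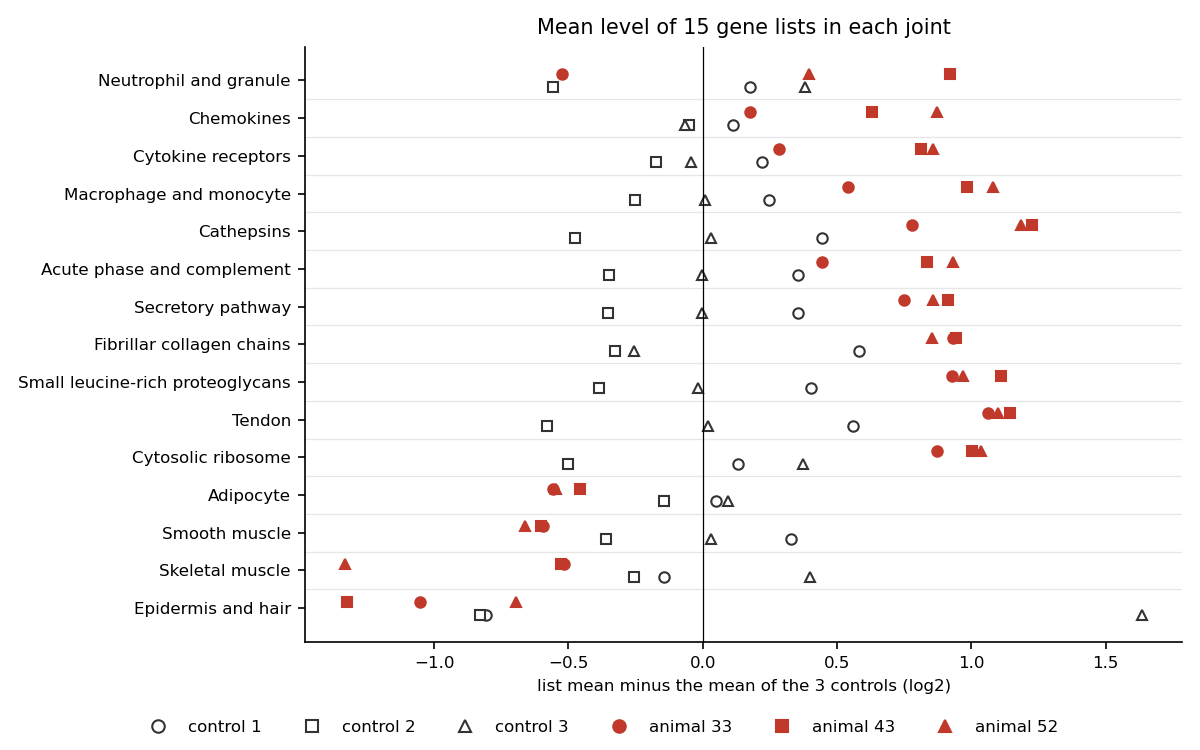
Mean log2 level of 15 gene lists in each joint, as the difference from the mean of the 3 controls (x axis), with controls as open and week 1 to 2 joints as red symbols. For tendon genes and collagen chains (labelled fibrillar, type VI included) the 3 arthritic joints lie close together. For neutrophil genes animal 33 lies with control 2, for skeletal muscle animal 52 lies lowest, and for epidermis and hair control 3 lies far to the right.

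Shares called in the BMP and WNT lists lay near those of all genes (5.41% higher and 4.64% lower). In the BMP, activin and TGF-beta list, 3 of 38 were called higher (7.89%) and 1 lower (2.63%). The number called higher was 0 without animal 43 or 52 and 8 without control 1. Inhba, which encodes the subunit of activin A, had 8.78, 9.31 and 9.33 against 7.25, 7.75 and 6.74 and was 3.72-fold higher (log2 1.90, standard error 0.43, adjusted p = 0.0178). The follistatin-like glycoprotein gene Fstl1 and the type I receptor gene Tgfbr1 rose by 1.20 and 1.10. Smad6, an inhibitor inside the BMP pathway, fell by 0.70 (adjusted p = 0.0242). The ligand genes Bmp2, Bmp4, Bmp6 and Bmp7 were not called, at 0.68, -0.50, -0.34 and -0.20. Among 34 WNT pathway genes Sfrp2 and Fzd1 rose, by 1.54 and 0.66, and Sfrp5 and Ndrg2 fell (5.88% each way), with 0 called higher and 1 lower without animal 43 or 52. Of 14 genes of the insulin-like growth factor axis, Igf1, Igfbp4, Igf2r and Igfbp7 rose. Igf1, the growth factor itself, had 11.04, 10.97 and 11.02 against 10.04, 9.27 and 9.71 (2.53-fold, adjusted p = 0.00832). Of these 4 genes 1 was called without animal 43, animal 52 or control 2 and with 1 mean and 1 SD for every array. Pappa, a protease that frees it from its binding proteins, was at 6.82, 6.80 and 6.82 against 6.83, 6.81 and 6.34.

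Lipid mediator genes were called higher in 2 and lower in 2 of 18. Hpgd, which inactivates prostaglandins, had 8.65, 8.57 and 8.53 against 7.51, 6.27 and 6.80 (3.3-fold, adjusted p = 0.00546), and the prostaglandin E receptor gene Ptger4 rose by 0.69. Pla2g2a, a secreted phospholipase, had 7.06, 6.62 and 6.09 against 8.41, 7.90 and 8.57 (log2 -1.70, adjusted p = 0.0116), and the leukotriene C4 synthase gene Ltc4s fell by 0.77. Without animal 43 or 52, 1 of these 18 genes was called higher and 0 lower. Cyclooxygenase 2 (Ptgs2) had 7.10, 7.77 and 8.31 against 6.99, 6.89 and 7.04 and was not called (adjusted p = 0.102).

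Among genes of protein export, synthesis and degradation, 10 of 26 secretory pathway genes, 7 of 17 cytosolic ribosomal protein genes and 6 of 26 proteasome genes were called higher, and 0 lower. Hsp90b1, a chaperone of the endoplasmic reticulum, had 11.95, 11.98 and 11.82 against 10.83, 9.59 and 10.45 (3.09-fold, adjusted p = 0.00657), and Dnajb9, a cochaperone induced by unfolded protein, rose by 1.48. Psma3, a proteasome core subunit, had 10.06, 10.96 and 10.67 against 8.72, 7.46 and 8.46 (5.1-fold, adjusted p = 0.00371). The mean of the ribosomal list was 10.62, 9.99 and 10.86 in controls 1, 2 and 3 and 11.36 to 11.53 in the arthritic joints. Control 2 was lowest in this mean and in signal range. Ribosomal protein genes, Uqcrh and Cycs have processed copies elsewhere in the genome, which probe sets may not tell apart. With 1 mean and 1 SD for every array the counts were 6, 4 and 5. Without animal 43 they were 2, 3 and 3, as without animal 52. Uqcrh, a respiratory chain subunit, was among the 12 largest rises, with 12.25, 12.16 and 12.10 against 9.23, 7.67 and 9.94, and 4 of 22 oxidative phosphorylation genes rose (Cycs, Cox4i1, Ndufb5 and Sdhc) while the muscle isoform Cox6a2 fell by 1.80. The other 2 probe sets of Cycs, at 1.57 and -0.63, were not called, and of these 4 genes 0 were called without animal 43 or without animal 52. Of 19 glycolysis and hypoxia genes 1 rose (5.26%, against 5.41% of all genes) and 2 fell (10.5%, against 4.64%), Aldoa by 1.18. The hypoxia-responsive factor gene Hif1a was 3.43-fold higher and Egln3, which marks that factor for degradation, 2.56-fold lower. Of 25 proliferation genes 4 rose, Pcna, Cdk6, Cdk4 and Bub1, and 1 of 25 was called without animal 43, without animal 52, without control 2 and without control 3.

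In the skeletal muscle list 12 of 29 genes were called lower and in the adipocyte list 8 of 18, with 0 called higher. In whole tissue, fewer cells of a type, less RNA per cell and a different amount of tissue left on the joint at dissection cannot be told apart. Besides Des and Mylk4, the 12 largest falls held the muscle genes Nrap, Txlnb and Myot and Pdk4, a brake on glucose oxidation in muscle. Nrap, which anchors actin at muscle ends, had 8.36, 8.42 and 7.68 against 10.21, 9.92 and 10.60 (4.25-fold lower, standard error 0.28 on the log2 scale, adjusted p = 0.00227). Titin (Ttn) had 10.35, 10.21 and 9.32 against 11.58, 11.43 and 11.52 (2.92-fold lower, adjusted p = 0.004). Skeletal actin (Acta1), myosin heavy chain IIb (Myh4) and muscle creatine kinase (Ckm) were at log2 changes of -0.64, -1.22 and -1.04 and were not called. The mean of the 29 muscle genes was 10.08, 10.07 and 9.26 in animals 33, 43 and 52 against 10.45, 10.34 and 11.00, so animal 52 was 0.81 below the others. With 1 mean and 1 SD for every array 19 were called lower in place of 12, without animal 52 6 and without control 3 7.

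Adiponectin (Adipoq), an adipocyte hormone, had 9.78, 9.81 and 9.77 against 10.81, 11.20 and 10.88 (2.26-fold lower, adjusted p = 0.00358). Hormone-sensitive lipase (Lipe) had 7.26, 7.13 and 7.06 against 8.18, 8.18 and 8.58 (2.24-fold lower, adjusted p = 0.0023). Resistin (Retn), the lipase gene Pnpla2 and perilipin (Plin1) fell by 0.96, 0.87 and 0.82. The mean of the 18 fat genes stayed within 7.49 to 7.59 in the arthritic joints, and all lay under the controls, at 7.90 to 8.14. Of the 8 genes called lower, 5 were called without animal 43 and 3 without animal 52. Myelin basic protein (Mbp), a gene of myelinating Schwann cells, fell by 1.12 and was the 1 of 8 nerve genes called. The smooth muscle genes Actg2, Lmod1 and Myh11 fell by 0.84, 0.65 and 0.56 together with Des, which skeletal muscle shares. Of these 4 genes 1 was called without animal 43 and 2 without animal 52 or 33.

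Epidermal and hair genes showed the largest median fall, -0.97, with 0 of 19 called. Their mean was 6.42, 6.39 and 8.86 in controls 1, 2 and 3 and 6.17, 5.90 and 6.53 in the arthritic joints. Keratin 1 (Krt1) had 11.57 in control 3 and 5.14 to 6.18 in the other 5 joints. Among the arthritic joints the genes of largest SD were the hair genes Gm10229 and Krtap6-2, higher in animal 52 than in animals 33 and 43. Krtap6-2 had 5.21, 4.37 and 8.21 in animals 33, 43 and 52 against 4.77, 4.66 and 10.41 in controls 1, 2 and 3. Erythroid genes had 1 of 9 called (11.1%), the transferrin receptor gene Tfrc, higher by 1.22, and 0 called higher without animal 43. The median log2 change of the 9 was -0.38. In 5 of the 9 all 3 arthritic joints lay below all 3 controls, against 23.3% of all genes. Endothelial genes had 1 of 16 called, Emcn, higher by 1.49, a share of 6.25% near the 5.41% of all genes.

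Genes of microRNAs formed a dim group, with a median control level of 5.07. A mature microRNA binds its targets by the seed, bases 2 to 8. Of 297 such genes measured 2 were called higher, Mirlet7c-1 and Mir103-2, and 40 lower (13.5%). Among all genes 4.64% were called lower, and among the 10% of genes dimmest in controls, with control means up to 4.83, 6.42%. Probe sets on this array read the gene region and not the processed small RNA, and the deposited values carry no flag for signal above background, so the sizes of change below are differences of signal. The control means of Mirlet7c-1 and Mir103-2 and the arthritic values of Mirlet7f-2 lay in the range of those dimmest genes, and a filter at a group mean of 6 leaves Mirlet7c-1 out. The let-7 family was looked at after its values were seen, because Mirlet7c-1 moved against Mirlet7e and Mirlet7f-2, which share its seed. Mature sequences are from RefSeq (GRCm38.p6), with the seed in capitals, and miR-103 is shown beside the family for its own seed.
let-7c-5p (Mirlet7c-1, chr16:77599672-77599693, plus strand): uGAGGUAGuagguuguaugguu
let-7e-5p (Mirlet7e, chr17:17830366-17830387, plus strand): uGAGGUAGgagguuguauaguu
let-7f-5p (Mirlet7f-2, chrX:151912353-151912374, plus strand): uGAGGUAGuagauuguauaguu
miR-103-3p (Mir103-2, chr2:131288103-131288125, plus strand): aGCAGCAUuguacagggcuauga
Mirlet7c-1 had 5.15, 5.38 and 4.64 against 3.56, 3.72 and 3.59 (log2 1.44, standard error 0.20, adjusted p = 0.0023). Mirlet7e had 5.77, 5.91 and 6.03 against 6.89, 7.13 and 7.09 (log2 -1.13, adjusted p = 0.00408). Mirlet7f-2 had 3.81, 3.74 and 3.64 against 4.65, 4.95 and 5.24 (log2 -1.22, adjusted p = 0.0023). In each of these 3 the groups stood apart. The other 6 genes with this seed, Mirlet7a-1, Mirlet7d, Mirlet7f-1, Mirlet7g, Mirlet7i and Mir98, were not called, at log2 changes of -0.51 to 0.11. Mir103-2 had 6.50, 5.89 and 6.68 against 3.87, 4.70 and 4.40 (log2 2.03, adjusted p = 0.0121).

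**Figure D5:**
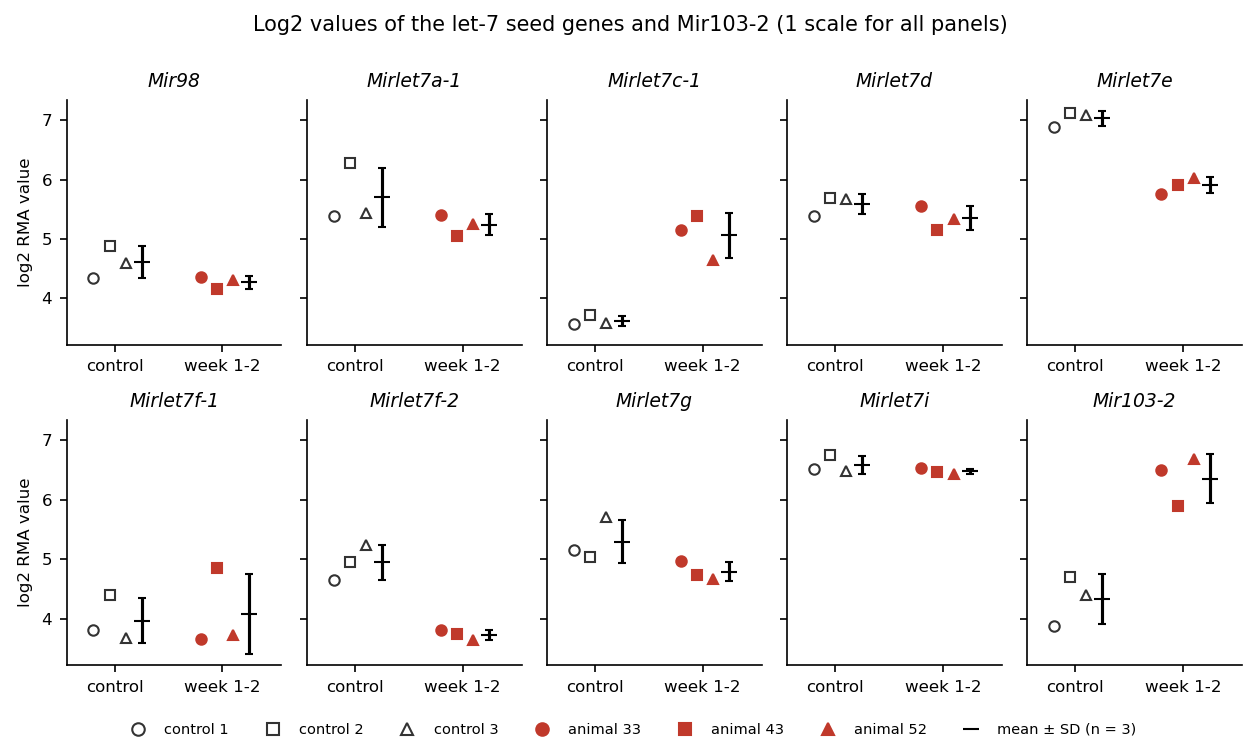
Log2 RMA values (y axis, 1 scale) of the 9 measured genes that share the let-7 seed and of Mir103-2 in each control joint (open symbols) and each week 1 to 2 joint (red), with the mean ± SD of each group (n = 3). Mirlet7c-1 and Mir103-2 lie higher in the arthritic joints, Mirlet7e and Mirlet7f-2 lower.

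Against joints of day 0 to 3 (score 3, 2 arrays), 1 gene of 19938 was called (0.00502%), with 356 at an unadjusted p under 0.05. The 1 gene was Myl2, the regulatory light chain of slow muscle myosin, at 10.23, 10.40 and 9.43 in week 1 to 2 and at a mean of 7.06 ± 0.04 (SD, n = 2) at day 0 to 3 (log2 difference 2.96, standard error 0.36, adjusted p = 0.0282). All 29 of the 29 muscle genes lay higher in week 1 to 2 than at day 0 to 3, at a median log2 difference of 1.24, and the list mean was 8.50 and 8.60 in the 2 joints of day 0 to 3. Whether the joints differed in the amount of muscle left at dissection was not tested. Myl2 was called in 6 of 14 fits that each left out 1 array, and 0 genes in 8 of them. Against week 3 to 4 (score 3, 3 arrays) 1 gene was called (0.00502%), with 993 at an unadjusted p under 0.05. It was Mirlet7c-1, which was at 3.49 ± 0.15 (SD, n = 3) in week 3 to 4 (log2 difference 1.57, standard error 0.20, adjusted p = 0.0376), and was called in 3 of 14 such fits.

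Both earlier and later joints were set against the same 3 controls, so the following log2 changes from control share them and are given side by side. Against control, 1559 genes were called at day 0 to 3 (7.82%; 4.46% higher and 3.36% lower) and 309 in week 3 to 4 (1.55%; 0.958% higher and 0.592% lower). For Mmp3, Clec4d, Cxcl5 and Il4ra they were 4.51, 2.96, 2.78 and 2.66 at day 0 to 3, against 3.52, 2.56, 2.30 and 1.46 after 1 to 2 weeks. For Phex, Tnmd, Omd, Edil3 and Hapln1 they were 0.00, 0.80, -0.04, 0.60 and 0.56 early, against 1.42, 2.13, 0.93, 1.40 and 1.15. The difference between both phases was called for 0 of these 9 genes, which were not picked by a rule set beforehand. Lif, an interleukin 6 family cytokine, and Pappa were called higher at day 0 to 3 (1.07 and 0.89) and not in week 1 to 2 (0.19 and 0.15), and this difference was not called either. In week 3 to 4, Il1b and Il6 were at 0.12 and -0.21, against 1.94 and 2.53 in week 1 to 2, and Acp5 and Ibsp at 2.00 and 1.49, against 2.07 and 1.30.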

How the data were processed

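RNA of 15 tarsal joints, 1 array per joint and none pooled, was isolated by mirVana, amplified by NuGEN Pico and read on Affymetrix Mouse Gene 1.0 ST arrays. The authors processed the arrays by RMA (affy, R 2.15, per the labels) and deposited log2 values, from 1.56 to 14.3; the sources used here do not say which arrays were normalised together. Of 35556 probe sets, the 21789 that name 1 gene in the platform annotation were used (1621 name several, 12146 are not listed), and the one with the highest mean stood for each of 999 genes with more than 1, which left 19938 genes.

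The 5 group means were estimated on 14 arrays, with no covariate, by lmFit and eBayes of limma 3.58.1 (R 4.3.3), since the labels mark 1 array of day 0 to 3, animal 57, as failing quality control. Replicates are separate mice. Arrays have no read depth, and their number limits the precision.

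The joints, the 43 gene lists (685 of 740 listed genes measured) and the rules were chosen with earlier results of these data known. Some lists, such as those of bone and matrix genes, hold genes the study chose on these arrays and are not independent evidence of direction. Named were the 12 largest rises and the 12 largest falls that were called and left no overlap between groups, up to 4 members per list by size of change, genes the study names, the genes called between phases and the 5 of largest SD among the joints. Other called members of a list were named after their values were seen, and so were the genes listed by microRNA seed. Motifs were searched in 250 bases upstream in the RefSeq promoter table (27025 genes). The calculation was tested on simulated data. Alternatives were all 15 arrays, each array left out, 2 groups alone, unmoderated, trended and weighted fits, other normalisations, a filter at a log2 value of 6, the mean of probe sets, and fold thresholds. Plots used matplotlib 3.10.9 (Python 3.11.15).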

Additional observations from a re-analysis of the deposited data

Results flagged for a closer look

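Myl2 and Mirlet7c-1 differed between phases of the disease by the limma test of the difference itself, and each was the 1 gene called in its comparison. With 1 array left out, Myl2 was called in 6 of 14 fits and Mirlet7c-1 in 3 of 14, and 0 genes were called in 8 and 10 of them. Myl2 also lost its call after median centring (adjusted p = 0.058) and over all 15 arrays (adjusted p = 0.182). Myl2 was higher in week 1 to 2 than at day 0 to 3 by 2.96 (log2, standard error 0.36, adjusted p = 0.0282, n = 3 and 2), above day 0 to 3 in 3 of 3 joints; against control its log2 change in week 1 to 2 was -0.38 (adjusted p = 0.438) and at day 0 to 3 -3.34. Mirlet7c-1 was higher in week 1 to 2 than in week 3 to 4 by 1.57 (log2, standard error 0.20, adjusted p = 0.0376, n = 3 and 3), in 3 of 3 joints. The whole skeletal muscle list moved with Myl2: 29 of 29 genes lay higher in week 1 to 2 than at day 0 to 3, at a median log2 difference of 1.24, with list means of 10.08, 10.07 and 9.26 in animals 33, 43 and 52 against 8.50 and 8.60. The part that muscle left on the joint at dissection had in this was not tested. The values of Mirlet7c-1 lay among the dimmest 10% of genes in control and week 3 to 4.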

How the results depend on the processing

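The alternatives, counts being genes called in week 1 to 2 against control with those higher and lower after them, moved the counts as follows. The main count was 2005 (1079 and 926). All 15 arrays gave 106 (22 and 84), an unmoderated fit of 5 groups 1250 (546 and 704) and of the 2 groups alone 10 (5 and 5), the 6 arrays alone 1164 (726 and 438), and array weights 3014 (1586 and 1428). Median centring gave 1810 (1211 and 599), so that 66.9% of calls were higher in place of 53.8%, and the filter at a log2 value of 6 2003 (1246 and 757). A fold of at least 2 beside the adjusted p gave 840 (653 and 187), and beside an unadjusted p 1094 (859 and 235). A second quantile normalisation gave 1707 (906 and 801). Setting every array to 1 mean and 1 SD, chosen after seeing the data, gave 1651 (882 and 769) and turned the sign of 9 of the 2005. Leaving out 1 array gave 417 to 3389 (249 to 1741 and 168 to 1681): 417 without animal 43, 519 without 52, 1220 without 33, 1071 without control 2, 1227 without control 3, 3241 without control 1, 3389 without decline animal 10, and 1415 to 2197 without any other single array. Of 140 named genes that were called, 0 turned sign in any alternative. With 1 mean and SD 125 stayed called, and 103 without control 2, 72 without animal 43 and 75 without 52. Over all 15 arrays 21 stayed called, and 0 in the unmoderated fit of 2 groups. Among 22 list counts of 4 or more, 18 fell by over 1.5 times without animal 43, 18 without 52 and 10 without control 2. With 1 mean and SD 6 did, and over all 15 arrays 22. Against day 0 to 3 the count was 2 (2 higher) over all 15 arrays and after a second quantile normalisation, 0 after median centring, 67 (56 higher and 11 lower) at 2-fold and an unadjusted p, and 0 to 7 with 1 array left out (0 to 7 higher, 0 lower), 0 in 8 of 14 such fits, among them those without any single day 0 to 3 array, which leaves 1 there, assumed to vary like the other groups. Against week 3 to 4 it was 185 (44 and 141) at 2-fold and an unadjusted p, and 0 to 42 with 1 array left out (0 to 1 higher, 0 to 41 lower), 0 in 10 of 14 such fits and 42 without animal 54. The cause was not tested where no count of arrays or genes gives it. No paired analysis was possible because the replicate numbers are not in the labels and join no animals across groups.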
